A study of Mus musculus with 58 samples.

Results

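The comparison of Kmt5b heterozygous with wild-type mice under lithium was made on 18 of the 58 prefrontal cortex libraries of the series, all those whose labels give lithium: 10 of heterozygous mice (HT; 5 females and 5 males) and 8 of wild-type mice (WT; 4 females and 4 males). The mice were C57BL/6J, and lithium reached the pups through maternal milk for 3 weeks, from postnatal day 3 to day 24, with tissue taken on day 25. The other 40 libraries are HT and WT mice given vehicle or fluoxetine in the same way, 20 for each treatment, and they serve as context for the lithium values and, since all 58 libraries were fitted together, share in the estimate of the spread behind each p-value. The labels give the genotype as heterozygous, with no description of the allele, the dose or the litters. P-values therefore measure the spread between these libraries, which may in part be technical or lie between litters.

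Kmt5b encodes an enzyme that methylates lysine on histone H4, and the mark it leaves is found on compacted chromatin and in the response to DNA breaks. Lithium is a mood stabiliser that inhibits the kinase GSK3, a brake on beta-catenin signalling, and phosphatases that recycle inositol. The comparison asks which transcripts differed between the genotypes when both had been exposed to lithium during the weeks in which cortical synapses, glia and myelin mature.

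Values are normalised counts, that is, reads per gene scaled by the authors to a common depth, and a difference is HT minus WT on the log2 scale after adding 1, fitted with limma over 16669 genes with a mean of at least 10. A gene passed at a Benjamini-Hochberg adjusted p under 0.05, and "rose" and "fell" are used only of genes that passed. HT lithium libraries held 23.5 to 29.0 M reads and WT lithium libraries 24.2 to 38.6 M. The sex of each lithium library, read from Xist and Ddx3y, disagreed with its label in 0 of 18 cases. Of 16 excitatory neuron, 26 inhibitory neuron and 20 astrocyte markers, 0 were at 0 in all lithium libraries. The same held for olfactory bulb, thalamus and striatal markers, so this does not check the tissue label.

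Of the 4 lithium groups of genotype and sex, WT females differed most among themselves, and females 3 and 4 stood apart in many genes at once. They held the most reads of the 58 libraries, at 38.6 and 37.7 M reads, and in 1308 genes both lay beyond all 56 other libraries of the series, below them in 436 genes and above them in 872. Of the 1653 pairs of libraries 1 had more (1325 genes, a pair of fluoxetine libraries), and the most for any other pair within 1 group of genotype, treatment and sex was 318. The other 2 WT females lay far from the fit of their group: of the weights that limma gives to the 58 libraries, lower for a library with larger residuals, WT female 1 had the lowest, 0.24, and WT female 2 the third lowest, 0.405, against 1.13 and 0.862 for females 3 and 4. The squared difference in reads between a pair of libraries, as a multiple of that from sampling alone (median over genes), was 17.96 and 19.13 between WT female 1 and females 3 and 4, 5.35 between females 3 and 4, and 1.94 to 5.93 within the other 3 lithium groups of genotype and sex. Leaving out females 3 and 4 thus leaves females 1 and 2 as the only WT females. A second difference between libraries lay in 16 olfactory bulb markers, whose mean log2 level was 5.54 to 5.78 in HT female 4, HT male 1 and HT male 3, against 8.24 to 9.10 in the other 7 HT libraries and 7.20 to 9.31 in the WT libraries. For the 10 genes that passed over both sexes, and for lists whose median turned or moved by over 1.5 times, the value without WT females 3 and 4 is given as well.

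Kmt5b itself, on chromosome 19, had a lowest value of 1573, a median of 1760 and a highest value of 1845 normalised counts in libraries labelled HT, against 1409, 1579 and 1800 in libraries labelled WT. The groups overlapped, and the HT libraries were on the higher side. The difference was 0.13 (SE 0.0453), with p = 0.00939 by an exact two-sided permutation test that exchanged libraries within sex and an adjusted p of 0.27 by limma over all genes. Without WT females 3 and 4, which held the 2 lowest values of the WT group (1409 and 1479), it was 0.09 and exact p = 0.0533. Less Kmt5b RNA was thus not seen in the libraries labelled HT, and the value per gene cannot tell an altered transcript from an intact one. HT and WT stand for the labels throughout, and each direction below rests on them.

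Of 16669 genes, 10 passed (0.06%), 8 higher and 2 lower in HT, and 1683 had an unadjusted p under 0.05. Those that rose were Pisd-ps1 and Pisd-ps2, copies of a phospholipid enzyme gene, Col5a1, a chain of a fibrillar collagen, Neurog2, a proneural transcription factor, Stil, a protein of centriole duplication, L3mbtl4, a protein with domains that bind methylated lysines, and 2 genes of no assigned function, Gm2974 and 9330159M07Rik. Those that fell were Fermt2 (kindlin-2), which activates integrins at cell contacts with the matrix, and Rpn2, a subunit of the complex that attaches sugar chains to proteins in the endoplasmic reticulum. Genes of no assigned function are otherwise counted and not named; these 2 were named after their values were seen. Leaving out WT females 3 and 4 gave 2 genes (0.012%), both of them copies of Pisd. Leaving out WT female 1 gave 211 genes (1.27%), 61 higher (0.366%) and 150 lower (0.9%), and these included all 10. With only the lithium libraries in the fit, 4 genes passed, all higher, among them Pisd-ps1, Pisd-ps2 and Col5a1.

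**Figure D1:**
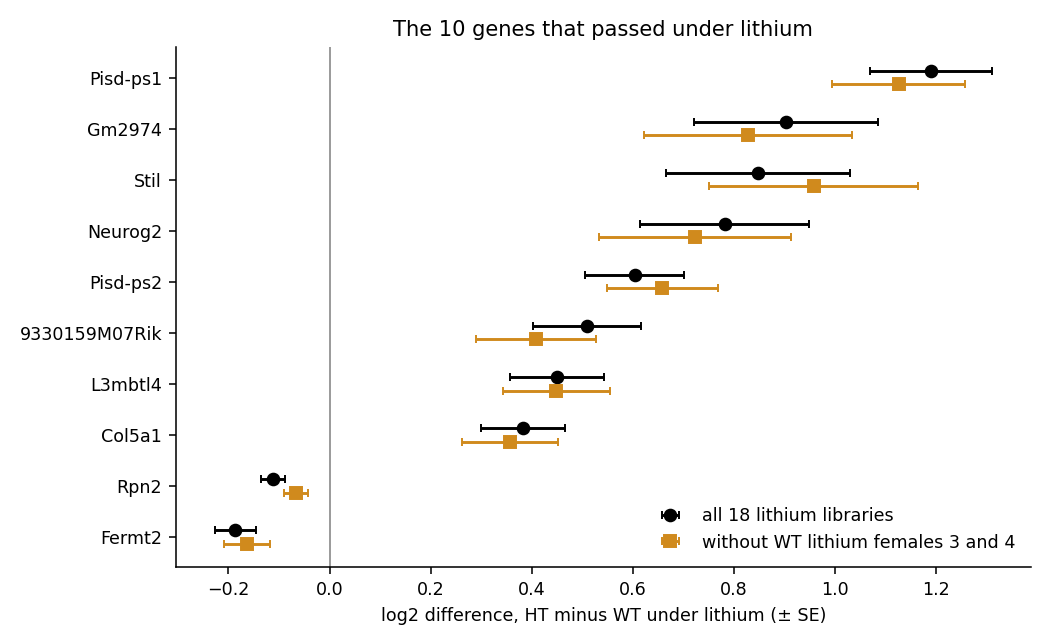
Log2 difference, HT minus WT under lithium, of the 10 genes that passed, with its SE as a bar, from all 18 lithium libraries (black) and without WT lithium females 3 and 4 (orange). Pisd-ps1 lies farthest to the right at 1.19, and Fermt2 (-0.19) and Rpn2 (-0.11) are the only genes left of 0. The other 7 lie between, from 0.38 to 0.90, and all 10 stand on the same side of 0 without the 2 libraries.

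**Figure D2:**
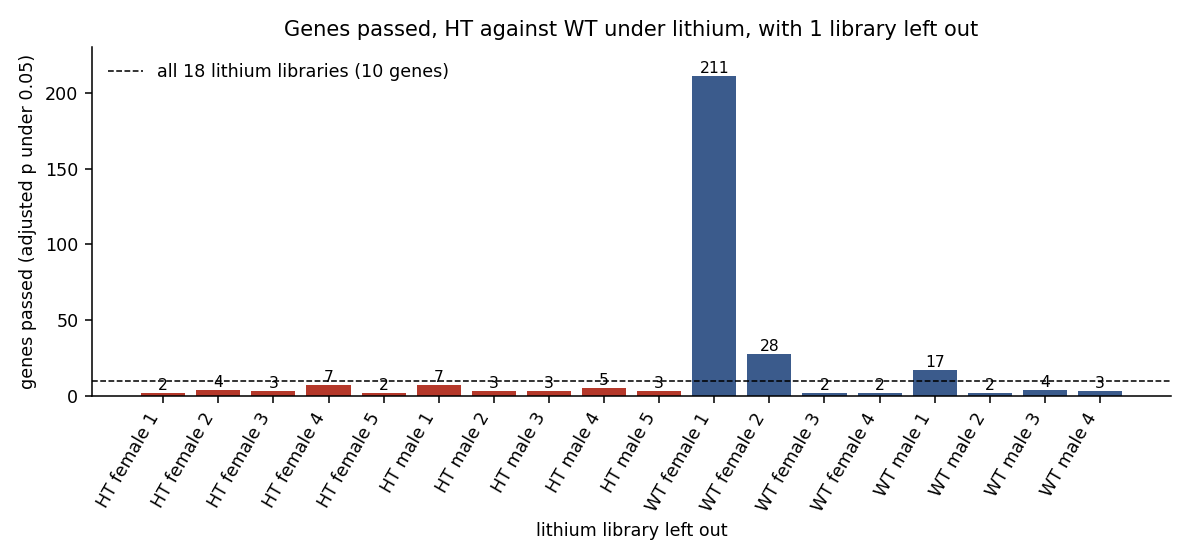
Number of genes that passed between HT and WT under lithium when the library named below each bar was left out (HT libraries red, WT libraries blue); the dashed line marks the 10 genes of all libraries. The count was 211 without WT female 1, 28 without WT female 2 and 17 without WT male 1, and it was 2 to 7 without any 1 of the others.

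Pisd encodes phosphatidylserine decarboxylase, the mitochondrial enzyme that turns phosphatidylserine into phosphatidylethanolamine, a main lipid of membranes. Mice carry transcribed copies of the gene that the GENCODE vM21 annotation (GRCm38) lists as unprocessed pseudogenes. Pisd lies on chromosome 5 from 32736301 to 32785646 on the minus strand, Pisd-ps1 on chromosome 11 from 3125904 to 3131004 on the plus strand, and Pisd-ps2 on chromosome 17 from 3076578 to 3084183 on the minus strand. In a local alignment of 1 transcript of each copy to a coding transcript of Pisd, Pisd-ps1 was identical at 95.1% of 897 aligned bases and Pisd-ps2 at 96.6% of 881. Of the distinct 31-base words in the transcripts of each gene, 27.7% of those of Pisd-ps1, 22.6% of those of Pisd-ps2 and 9.68% of those of Pisd occurred in another of these genes. A read that holds only shared words cannot be placed by its sequence alone, so part of the level of each copy is uncertain. The share of words does not say how large that part is, and words shared with other genes were not counted. The stretch below, 60 bases within 1 exon of each gene, is shown because, of the coding windows aligned without gaps in all 3 genes, it is the first in which Pisd-ps1 differs from Pisd at the most positions. Capitals mark the 9 positions at which the 3 genes are not all the same. Pisd-ps1 differs from Pisd at 8 of the 60 positions and Pisd-ps2 at 7.
Pisd (chr5:32739145-32739204, minus strand, coding): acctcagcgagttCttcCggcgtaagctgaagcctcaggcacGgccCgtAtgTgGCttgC
Pisd-ps1 (chr11:3129098-3129157, plus strand): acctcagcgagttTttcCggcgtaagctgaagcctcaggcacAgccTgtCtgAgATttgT
Pisd-ps2 (chr17:3079363-3079422, minus strand): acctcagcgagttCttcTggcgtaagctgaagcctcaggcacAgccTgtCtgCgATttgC

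Pisd-ps1 had the clearest difference of all genes. Its normalised counts were 2668, 2870, 2297, 2422 and 2060 in HT females and 2855, 2902, 2080, 2820 and 2011 in HT males, against 1135, 1342, 1366 and 781 in WT females and 1090, 714, 1085 and 1384 in WT males. The lowest HT library stood above the highest WT library. The log2 difference was 1.19 (SE 0.121, adjusted p = 3.75e-09 by limma), 1.12 in females (SE 0.171, adjusted p = 0.000529) and 1.27 in males (SE 0.171, adjusted p = 2.18e-05), and 1.13 without WT females 3 and 4 (adjusted p = 4.44e-07). The HT and WT libraries failed to overlap in 4 of 16669 genes (0.024%), each time with HT above: Pisd-ps1, Col5a1, Neurog2 and Adgrg6, an adhesion receptor that did not pass (0.37, adjusted p = 0.214) and was named after its values were seen. In the absence of WT females 3 and 4 the number was 9 (0.054%).

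Pisd-ps2 ran from 314 to 467 normalised counts in HT libraries, with a median of 385, and from 207 to 322 in WT libraries, with a median of 244. Only WT female 3, at 322, and the HT libraries at 314 and 320 overlapped. Pisd-ps2 rose by 0.60 (SE 0.0982, adjusted p = 0.000983), and by 0.66 without WT females 3 and 4 (adjusted p = 0.00199). Both copies passed under all 37 alternative settings run, where the other 8 genes passed under 9 to 19. The parent gene Pisd had a median of 1882 in HT libraries, from 1737 to 2018, against 1655 in WT libraries, from 1447 to 1953. It did not pass (0.15, SE 0.0421, adjusted p = 0.166), and without WT females 3 and 4 the difference was 0.21 (adjusted p = 0.074).

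**Figure D3:**
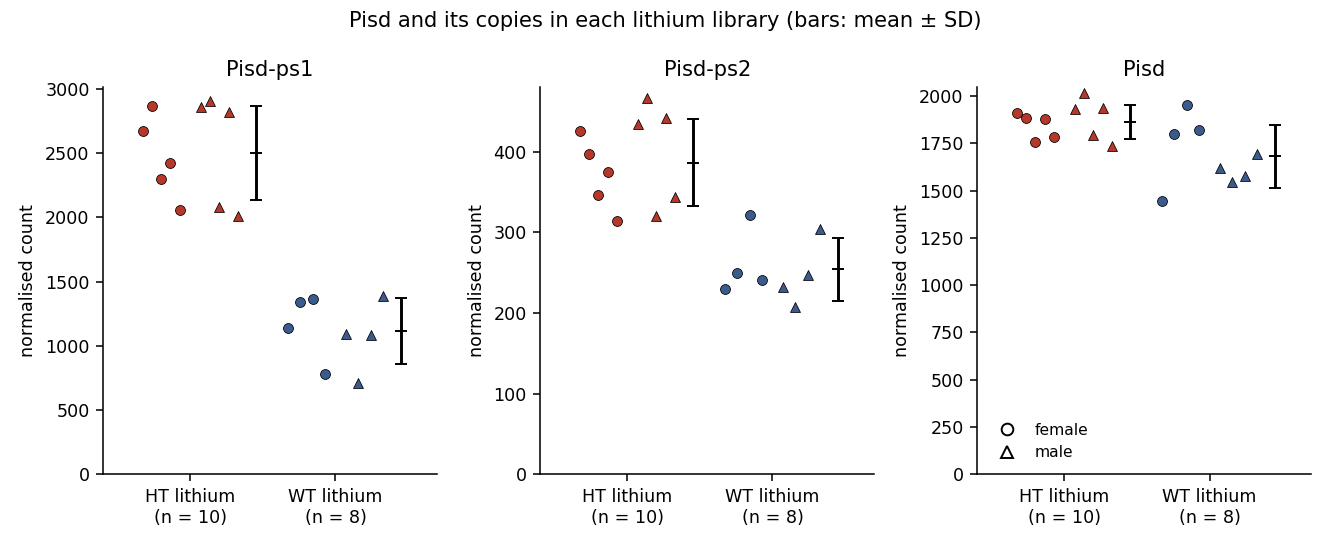
Normalised count of Pisd-ps1, Pisd-ps2 and Pisd in each HT lithium library (red, 5 females and 5 males) and each WT lithium library (blue, 4 females and 4 males), with the mean and SD of each group as black bars. For Pisd-ps1 all HT libraries (2011 to 2902) lie above all WT libraries (714 to 1384), for Pisd-ps2 the groups touch, and for Pisd they overlap.

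The same genotype difference stood in libraries that share none with this comparison. Pisd-ps1 had a median of 2417 in HT vehicle and 1583 in WT vehicle libraries (0.70, SE 0.114, adjusted p = 0.00133), and of 2742 in HT fluoxetine and 1661 in WT fluoxetine libraries (0.75, adjusted p = 0.000474). The WT lithium median, 1113, was the lowest of the 6 groups of genotype and treatment, while the HT lithium median, 2545, lay between those of the other HT groups. The lithium difference minus the vehicle difference was 0.49 (SE 0.166, adjusted p = 0.224), and minus the fluoxetine difference 0.44 (SE 0.166, adjusted p = 0.244), so neither passed. For Pisd-ps2 the differences were 0.39 under vehicle and 0.33 under fluoxetine (adjusted p = 0.071 and 0.0748). Of the other genes within 5 Mb of Pisd-ps1, 0 of 78 passed under lithium, and 0 of 32 near Pisd-ps2; around Kmt5b, 0 of 183 passed, where 0.06% of all genes did. The medians of these neighbours were -0.04, 0.0031 and -0.05, and 0.01, 0.01 and -0.0089 without WT females 3 and 4.

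Among the genes of matrix and adhesion, Col5a1 (chromosome 2, from 27886425 to 28039514) had 851 to 1008 normalised counts in HT libraries, with a median of 941, against 633 to 782 in WT libraries, with a median of 705. The groups did not overlap, and Col5a1 rose by 0.38 (SE 0.0829, adjusted p = 0.0485). Without WT females 3 and 4 it was 0.36 and adjusted p = 0.466. Col5a1 was also on the higher side in HT under the other treatments. Its median was 891 in HT and 756 in WT vehicle libraries, and 934 in HT and 827 in WT fluoxetine libraries. Fermt2 (chromosome 14, from 45458795 to 45530118) had a median of 2180 in HT libraries, from 1914 to 2337, against 2452 in WT libraries, from 2257 to 2709. The groups overlapped where 3 HT libraries (females 2 and 4 and male 1) stood above the lowest WT library, male 1. Fermt2 fell by 0.19 (SE 0.0407, adjusted p = 0.0485), with -0.16 and adjusted p = 0.563 without WT females 3 and 4. Its median was 2292 in HT and 2406 in WT vehicle libraries, and 2415 in HT and 2188 in WT fluoxetine libraries.

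Of 57 matrix and cell surface genes, 1 rose (Col5a1) and 0 fell, where 0.048% of all genes rose and 0.012% fell. In the list 19 were higher and 38 lower, with a median of -0.08 beside 0.0013 over all genes. Under vehicle 49 of the 57 were higher (median 0.15), and 2 rose where 0.03% of all genes did. Under fluoxetine 43 were higher (median 0.09), and 2 rose where 0.384% of all genes did. Without WT female 1, 2 members rose and 1 fell, where 0.366% of all genes rose and 0.9% fell. The next members of the list by p pointed both ways. F2r, the thrombin receptor, stood at a median of 186 in HT and 145 in WT libraries (0.31, adjusted p = 0.0826). Npnt, an integrin ligand, stood at 2052 in HT and 1735 in WT libraries (0.24, adjusted p = 0.179). Sparcl1, a matrix protein made by astrocytes, stood at 41199 in HT and 45324 in WT libraries (-0.14, adjusted p = 0.125).

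Neurog2 (chromosome 3, from 127633135 to 127635631), which drives cells toward a neuronal fate in the embryonic cortex, had low counts: 20.3 to 38.3 in HT libraries, with a median of 30.9, against 12.6 to 20.2 in WT libraries, with a median of 17.3. The HT libraries all lay above the WT libraries, although the lowest HT value, 20.3, and the highest WT value, 20.2, were nearly the same. Neurog2 rose by 0.78 (SE 0.167, adjusted p = 0.0485). The difference was 0.73 in females and 0.83 in males, and neither passed within its sex. Without WT females 3 and 4 it was 0.72 (adjusted p = 0.429). Under vehicle its difference was -0.05 and under fluoxetine 0.43; the lithium difference minus the vehicle difference was 0.83 (SE 0.229, adjusted p = 0.196).

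Stil (chromosome 4, from 115000159 to 115043196), which is needed to build new centrioles, had 15.1 to 23.7 normalised counts in HT libraries, with a median of 18.1, against 3.50 to 19.4 in WT libraries, with a median of 8.69. The WT values were 3.50 to 8.82 in females, below all HT libraries, and 8.32 to 19.4 in males, so the sexes overlapped. Stil rose by 0.85 (SE 0.182, adjusted p = 0.0485). In females it rose by 1.36 (SE 0.258, adjusted p = 0.0109) and in males the difference was 0.33 (adjusted p = 0.995), but the male minus female difference, -1.03 (SE 0.365), did not pass (adjusted p = 0.216). With WT females 3 and 4 left out, the difference was 0.96 over both sexes (adjusted p = 0.074) and 1.58 in females (adjusted p = 0.0819). Under vehicle the difference of Stil was 0.44 (limma adjusted p = 0.286) and under fluoxetine 0.07 (limma adjusted p = 0.9). Of 34 cell cycle genes tested, 0 passed, 14 were higher and 20 lower, with a median of -0.03. Top2a, a topoisomerase of dividing cells, stood at 52.7 in HT and 71.8 in WT libraries (-0.51, adjusted p = 0.398), and the mitotic kinase gene Aurkb at 8.55 in HT and 13.8 in WT libraries (-0.75, adjusted p = 0.407).

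L3mbtl4 (chromosome 17, from 68273797 to 68780086) had 49.0 to 77.2 normalised counts in HT libraries, with a median of 63.1, against 37.6 to 52.0 in WT libraries, with a median of 47.9. Only HT male 4, at 49.0, lay within the WT range. L3mbtl4 rose by 0.45 (SE 0.0935, adjusted p = 0.0485; 0.45 and adjusted p = 0.171 without WT females 3 and 4), and its difference was -0.13 under vehicle and 0.29 under fluoxetine. Among the 3 higher genes with the smallest p for the lithium minus the vehicle difference it came with 0.58 (SE 0.128, adjusted p = 0.168). Gm2974 rose by 0.90 (adjusted p = 0.046), with 1.31 in males (adjusted p = 0.0348), and 9330159M07Rik rose by 0.51 (adjusted p = 0.0485). Without WT females 3 and 4 they stood at 0.83 (adjusted p = 0.247) and 0.41 (adjusted p = 0.563). The difference of Gm2974 was 0.30 under vehicle and -0.07 under fluoxetine. The median of 9330159M07Rik was 51.1 in both HT and WT vehicle libraries, and 61.4 in HT and 51.7 in WT fluoxetine libraries. Of 13 writers and readers of the histone H4 mark of Kmt5b, 0 passed, with 8 higher and 5 lower and a median of 0.01. Without WT females 3 and 4 it was 5 higher and 8 lower with a median of -0.0060. Without WT female 1, 1 member rose, where 0.366% of all genes did.

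Rpn2 (chromosome 2, from 157279017 to 157326319) showed a small difference. The SD of its counts was 56.1 in HT and 130 in WT libraries, and 71.8 in WT libraries without females 3 and 4. Its normalised counts were 2085 to 2242 in HT libraries, with a median of 2166, against 2197 to 2539 in WT libraries, with a median of 2302. The 2 highest values, 2518 and 2539, were those of WT females 3 and 4. Rpn2 fell by 0.11 (SE 0.0244, adjusted p = 0.0485), and the difference was -0.07 without these libraries (adjusted p = 0.837). Its median was 2351 in HT and 2350 in WT vehicle libraries, and 2204 in HT and 2242 in WT fluoxetine libraries. Oligosaccharyltransferase subunits, gathered after Rpn2 was seen to pass, were lower in 10 of 10 members, where 8243 of all 16669 genes were lower. Rpn2 was the one that fell, where 0.012% of all genes did, and the median was -0.11. Since Rpn2 led to the list and is counted in it, these counts are only a description. Rpn1, a partner subunit, stood at 3409 in HT and 3630 in WT libraries (-0.14, adjusted p = 0.125), and Stt3a, a catalytic subunit, at 1008 in HT and 1116 in WT libraries (-0.12, adjusted p = 0.2). Without WT females 3 and 4, 9 of the 10 subunits were lower and the median was -0.06.

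Other genes with the smallest p and 1 direction in both sexes did not pass. Among those higher in HT were Wdfy4, which acts in antigen presentation by dendritic cells (0.35, adjusted p = 0.0534), Map3k15, a kinase gene (0.49, adjusted p = 0.0765), Mctp2, a membrane protein with calcium-binding domains (0.65, adjusted p = 0.0811), Mettl27 (0.32, adjusted p = 0.0825), Dnah14, a dynein heavy chain (0.59, adjusted p = 0.0825), Trim68, a ubiquitin ligase gene (0.35, adjusted p = 0.0825), and Rgs13, a regulator of G protein signalling (0.60, adjusted p = 0.0826). Wdfy4 ran from 115 to 168 normalised counts in HT libraries and from 98.1 to 137 in WT libraries. Among those lower were Sec23b, a coat protein of vesicles leaving the endoplasmic reticulum (-0.12, adjusted p = 0.0517), Eif3d, a translation initiation factor (-0.14, adjusted p = 0.0534), Hadha, an enzyme of mitochondrial fatty acid oxidation (-0.16, adjusted p = 0.0534), Papss1, which makes the sulfate donor (-0.11, adjusted p = 0.0535), Pgd of the pentose phosphate pathway (-0.13, adjusted p = 0.0765), and Slc7a10, an amino acid transporter of astrocytes (-0.27, adjusted p = 0.0811). Sec23b ran from 901 to 1005 normalised counts in HT libraries and from 989 to 1084 in WT libraries. Gzf1, a zinc finger factor (-0.13, adjusted p = 0.0825), Tnfaip1, an adaptor of ubiquitin ligases (-0.10, adjusted p = 0.0889) and Anapc2 of the anaphase-promoting complex (-0.13, adjusted p = 0.0982) were also among the lower genes.

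Leaving out WT female 1 brought some of these and others past the threshold, which makes that library the one on which the count of genes turned most. Msh3, a mismatch repair gene, then rose by 0.21 (adjusted p = 0.00807), Trim68 by 0.41 (adjusted p = 0.0103), F2r by 0.35 (adjusted p = 0.0145) and mt-Atp6, a mitochondrially encoded subunit of ATP synthase, by 0.80 (adjusted p = 0.0164). Rpn1 fell by 0.18 (adjusted p = 0.00162), Eif3d by 0.16 (adjusted p = 0.00373), Urod, an enzyme of heme synthesis, by 0.18 (adjusted p = 0.00464), and Hyou1, a chaperone of the endoplasmic reticulum, by 0.21 (adjusted p = 0.00795). For mt-Atp6 the HT libraries ran from 42487 to 80862 normalised counts and the WT libraries from 11070 to 66342. Its difference was 0.59 with all libraries and 0.03 without WT females 3 and 4. These were 2 of the 3 WT females left once female 1 was out. In their absence, with female 1 kept, Rpn1 stood at -0.08, Eif3d at -0.09, Urod at -0.08, Hyou1 at -0.04, Msh3 at 0.10, Trim68 at 0.30 and F2r at 0.29, and none of these passed. The gene lists described below and above also turned on WT female 1. Without it, 8 of 73 nuclear oxidative phosphorylation genes and 7 of 79 ribosomal protein genes fell, where 0.9% of all genes did. So did 4 of 32 stress response genes, 4 of 10 oligosaccharyltransferase subunits and 3 of 20 astrocyte markers. Without WT females 3 and 4, 0 members of these lists fell.

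In females, 136 genes passed (0.816%), 45 higher (0.27%) and 91 lower (0.546%) in HT, and in males 4 passed (0.024%), all higher: Pisd-ps1, Pisd-ps2, Gm2974 and Epha8, an ephrin receptor (0.62 in males, SE 0.126, adjusted p = 0.0348, and -0.07 in females). Among the genes that fell in females were Rps18 (-0.35, adjusted p = 0.00596) and Rps12 (-0.46, adjusted p = 0.0438), proteins of the small ribosomal subunit, Rpl27 (-0.53, adjusted p = 0.047) of the large one, Ergic3 (-0.23, adjusted p = 0.036) of early secretory transport, and Aldh4a1 (-0.28, adjusted p = 0.036), an enzyme of proline breakdown. Among those that rose in females, beside Pisd-ps1 and Stil, were mt-Atp6 (1.26, adjusted p = 0.0438) and Itga4, an integrin chain (0.43, adjusted p = 0.047). When WT females 3 and 4 were left out, 0 genes passed in females (0%) by limma, with 623 at an unadjusted p under 0.05 and 0 by edgeR, and Rps18 stood at -0.15, Rpl27 at -0.23, mt-Atp6 at 0.14 and Pisd-ps1 at 0.99 (adjusted p = 0.0819). With only the lithium libraries in the fit, 0 passed in females. The difference between the sexes itself passed in 0 of 16669 genes (0%) by limma, with 2443 at an unadjusted p under 0.05 and 0 by edgeR and by DESeq2. The male minus female difference of Rps18 was 0.43 (SE 0.0889, adjusted p = 0.162).

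Of 79 ribosomal protein genes, 0 passed with the sexes averaged, 8 were higher and 71 lower, and the median was -0.09. In females 15 fell, where 0.546% of all genes did, 0 rose, and the median was -0.24. In males 0 passed, 63 were higher, and the median was 0.04. Rps6 ran from 3092 to 3472 normalised counts in HT libraries and from 3174 to 4818 in WT libraries. Without WT females 3 and 4 the median was -0.02 with the sexes averaged and -0.09 in females, and 0 fell. The difference between the sexes passed for none of the 79. Of 73 nuclear genes of oxidative phosphorylation, 4 were higher with the sexes averaged (median -0.07), 3 fell in females (median -0.20), and the male median was 0.06. Leaving out WT females 3 and 4 gave 27 higher with the sexes averaged (median -0.01), and in females 0 fallen (median -0.08). Ndufs7, a subunit of the first respiratory complex, stood at 1096 in HT and 1204 in WT libraries (-0.16, adjusted p = 0.214). Mitochondrially encoded genes were on the other side, with 13 of 15 higher and a median of 0.09, which was -0.07 without WT females 3 and 4. Their share of all counts was 6.74% to 8.67% in HT libraries and 5.33% to 8.56% in WT libraries, the lowest 2 being WT females 4 and 3 at 5.33% and 6.54%. The slope of log2 values on exon length, a measure that moves with RNA quality and library preparation, ran from -0.0292 to 0.0415 in HT libraries and was lowest in WT females 3 and 2, at -0.0946 and -0.0667. With the slope as a covariate, 16 genes passed between HT and WT over both sexes, and the tests within each sex gave 1 in females and 2 in males.

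**Figure D4:**
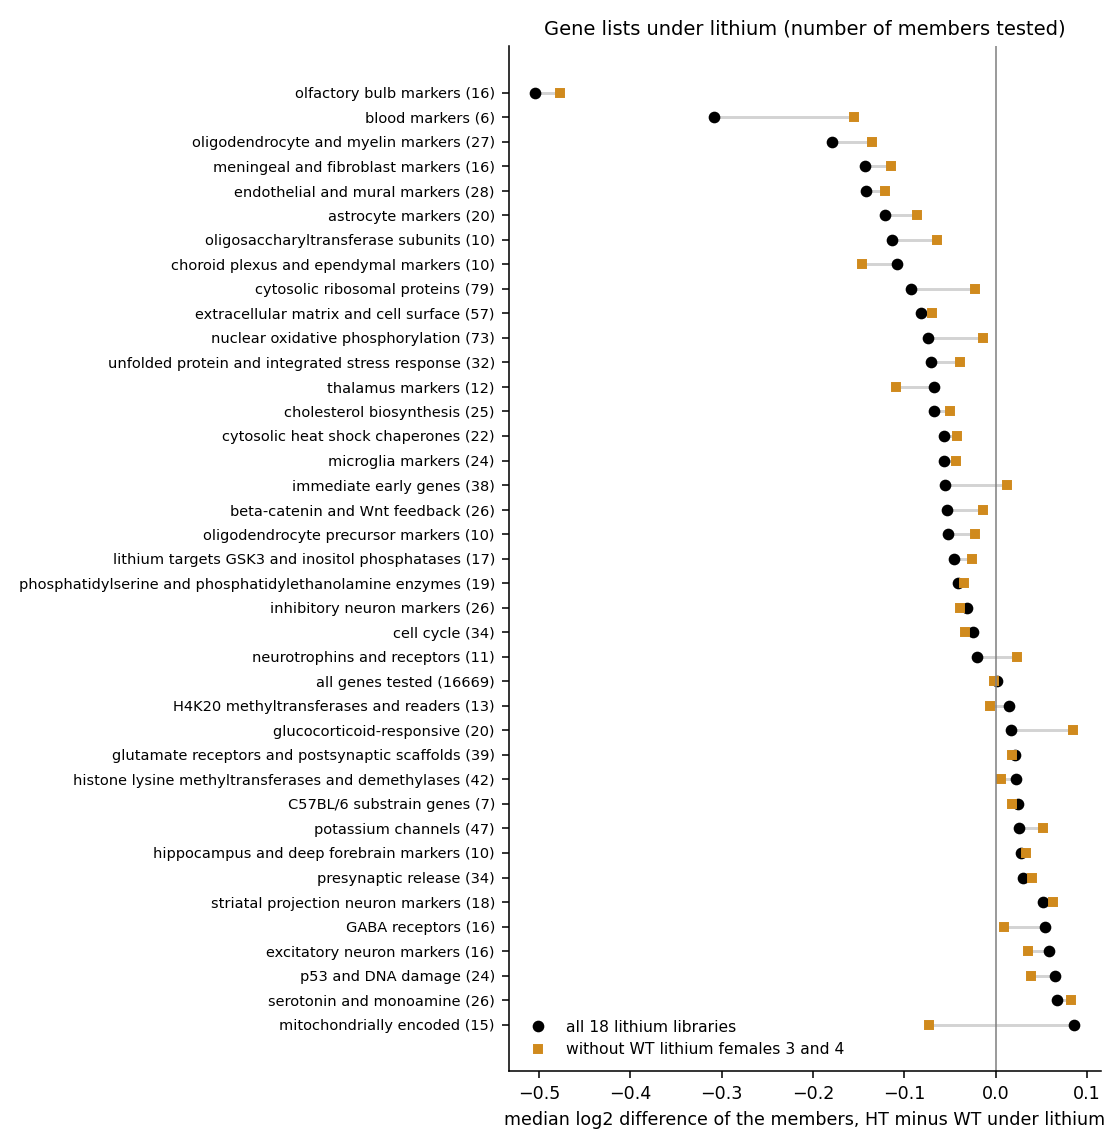
Median log2 difference, HT minus WT under lithium, of the members of each gene list, with the number of members tested in brackets, from all 18 lithium libraries (black circles) and without WT lithium females 3 and 4 (orange squares). Olfactory bulb, blood and oligodendrocyte markers lie lowest at -0.50, -0.31 and -0.18, and the mitochondrially encoded genes lie at 0.09 with all libraries and at -0.07 without these 2.

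Glial and vascular markers were lower in HT libraries, each by little. In bulk tissue, fewer cells of a type and less of its RNA per cell cannot be told apart. Of 20 astrocyte markers, 0 passed (19 lower, median -0.12), and the mean log2 level of the list was 11.67 to 11.78 in HT libraries, with a median of 11.73, against 11.68 to 11.98 in WT libraries, with a median of 11.81. WT male 1 was the one WT library that lay among the lowest HT libraries, at 11.68. The difference in this level was -0.11 (exact two-sided permutation within sex, p = 0.00183, adjusted p = 0.0311 over 17 library measures), and -0.08 without WT females 3 and 4 (exact adjusted p = 0.193). Mlc1, a membrane protein of astrocyte end feet, stood at 3261 in HT and 3544 in WT libraries (-0.15, adjusted p = 0.171).

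Of 28 endothelial and mural markers, 0 passed and all 28 were lower, with a median of -0.14. Their mean log2 level was 9.21 to 9.42 in HT libraries and 9.33 to 9.67 in WT libraries, a difference of -0.15 (exact permutation p = 0.00517, adjusted p = 0.0439 over the 17 measures) that was -0.11 without WT females 3 and 4 (exact adjusted p = 0.193), when 22 of the 28 were lower. The ranges overlapped in both lists, and without the 3 HT libraries low in olfactory bulb markers the differences were -0.11 for astrocyte and -0.16 for endothelial markers, neither of which passed (exact adjusted p = 0.149). Slco1c1, a thyroxine transporter of the blood-brain barrier, stood at 2255 in HT and 2573 in WT libraries (-0.24, adjusted p = 0.261), and Tagln, an actin-binding protein of smooth muscle, at 195 in HT and 241 in WT libraries (-0.32, adjusted p = 0.317). The other 15 library measures did not pass. Summed over each list, the endothelial markers came to 25158 to 28493 normalised counts in HT libraries and 27049 to 33969 in WT libraries.

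Of 27 oligodendrocyte and myelin markers, 0 passed and all 27 were lower, with a median of -0.18 (-0.14 without WT females 3 and 4, when 26 were lower). Cnp, an enzyme of myelin, stood at 4936 in HT and 5584 in WT libraries (-0.30, adjusted p = 0.405), with its highest value, 9357, in a WT library, and the lineage factor gene Olig2 at 482 in HT and 554 in WT libraries (-0.21, adjusted p = 0.37). Microglia markers were lower in 21 of 24 (median -0.06), for example the fractalkine receptor gene Cx3cr1 at 1167 in HT and 1279 in WT libraries (-0.17, adjusted p = 0.286). Oligodendrocyte precursor markers were lower in 8 of 10 (median -0.05, and -0.02 without WT females 3 and 4). Meningeal and fibroblast markers were lower in 13 of 16 (median -0.14), and the 6 blood markers tested were all lower (median -0.31, and -0.15 without WT females 3 and 4). Summed, the oligodendrocyte markers came to 95266 to 138291 normalised counts in HT libraries and 109662 to 180270 in WT libraries, the microglia markers to 17318 to 18715 in HT and 17491 to 22993 in WT libraries, and the blood markers to 7712 to 11693 in HT and 5366 to 18705 in WT libraries. Of these lists 0 members passed. Under vehicle the medians of the astrocyte, oligodendrocyte, endothelial and microglia lists were -0.04, -0.02, -0.06 and -0.07. Under fluoxetine these medians were 0.08, 0.16, 0.11 and 0.15.

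Neuronal and synaptic lists had medians from -0.06 to 0.07. Excitatory neuron markers were higher in 13 of 16 (median 0.06, and 0.04 without WT females 3 and 4) and inhibitory neuron markers in 9 of 26 (median -0.03). Striatal projection neuron markers were higher in 12 of 18 (median 0.05). In each of these lists 0 passed. Dlx1, Dlx2 and Dlx5 are in both the inhibitory and the olfactory bulb lists. Calb2 is shared by the inhibitory and thalamus lists, and Tac1 by the inhibitory and striatal lists. Cspg4 is shared by the oligodendrocyte precursor list and the endothelial and mural list. The mean log2 inhibitory level differed by -0.04, and by 0.07 without the 3 HT libraries low in olfactory bulb markers. Neither difference passed (exact permutation, adjusted p = 0.671 and 0.379). Glutamate receptor and scaffold genes were higher in 23 of 39 (median 0.02), and Grin2a, a subunit of the NMDA receptor, stood at 6610 in HT and 6061 in WT libraries (0.16, adjusted p = 0.493). GABA receptor genes were higher in 14 of 16 (median 0.05, and 0.0090 without WT females 3 and 4), with Gabrg3 at 1467 in HT and 1330 in WT libraries (0.17, adjusted p = 0.335). Serotonin and monoamine genes were higher in 17 of 26 (median 0.07), the serotonin receptor gene Htr2a standing at 1781 in HT and 1573 in WT libraries (0.20, adjusted p = 0.317). Presynaptic release genes (21 of 34 higher, median 0.03) and potassium channel genes (33 of 47, median 0.03, and 0.05 without WT females 3 and 4) had 0 passed. Neurotrophins and receptors (4 of 11 higher, median -0.02) and immediate early genes (11 of 38, median -0.06) also had 0 passed, and both turned direction when WT females 3 and 4 were left out, with 8 of 11 higher (median 0.02) and 20 of 38 higher (median 0.01).

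**Figure D5:**
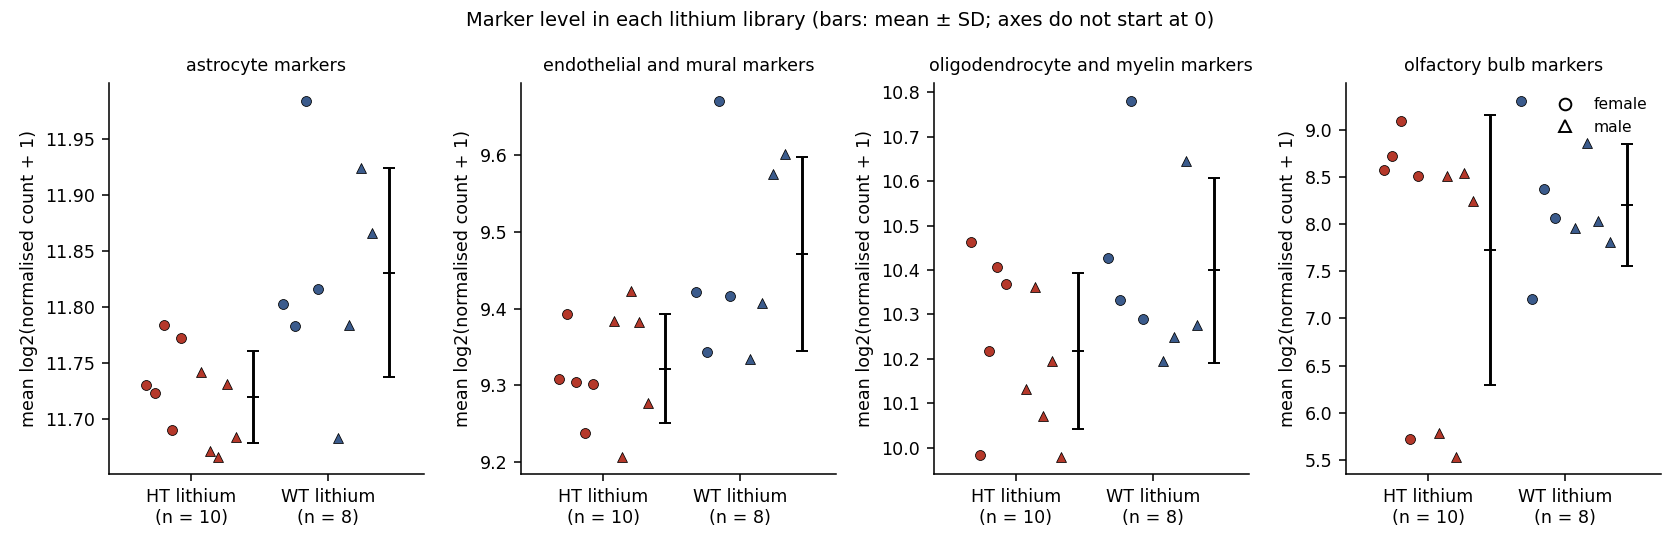
Mean log2(normalised count + 1) of the astrocyte, endothelial and mural, oligodendrocyte and olfactory bulb markers in each HT lithium library (red) and WT lithium library (blue), circles for females and triangles for males, with the mean and SD of each group as black bars; the axes do not start at 0. The astrocyte level has a median of 11.73 in HT and 11.81 in WT libraries, and 3 HT libraries lie at 5.54 to 5.78 for olfactory bulb markers, below all the others.

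The olfactory bulb markers, all 16 of them lower in HT with 0 passed, had a median difference of -0.50, with the lowest levels in the 3 HT libraries named above. Under vehicle all 16 were higher in HT (median 0.99), and under fluoxetine all 16 were lower (median -0.35), with 0 passed in each. Doc2g ran from 48.2 to 1846 normalised counts in HT libraries and from 327 to 1998 in WT libraries. Without the 3 libraries the difference in the mean log2 level was 0.38, against -0.48 with them (exact p = 0.173 and 0.396). Leaving them out gave 7 genes passed between HT and WT, 3 higher and 4 lower. Summed, the olfactory bulb markers came to 4440 to 19709 normalised counts in HT libraries and 7086 to 23898 in WT libraries. Choroid plexus, thalamus and deep forebrain lists had 0 passed, with medians of -0.11, -0.07 and 0.03. The thalamus median was -0.11 without WT females 3 and 4. In mean log2 level the thalamus difference was -0.06, and 0.04 without the 3 HT libraries (exact permutation, adjusted p = 0.671 and 0.604).

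Lists of the pathways that lithium is known to act on are short beside a share of 0.06% passed over all genes, so their counts of 0 are near the background. Of 17 genes of GSK3 and inositol metabolism 0 passed, with 7 higher and a median of -0.05 (-0.03 without WT females 3 and 4); Bpnt1, a phosphatase that lithium inhibits, stood at 1425 in HT and 1525 in WT libraries (-0.13, adjusted p = 0.139). Of 26 beta-catenin and Wnt feedback genes 0 passed (9 higher, median -0.05; 12 higher, median -0.01 without WT females 3 and 4), and Notum, a Wnt-inactivating enzyme, stood at 86.0 in HT and 99.2 in WT libraries (-0.24, adjusted p = 0.509). Cholesterol synthesis genes were lower in 22 of 25 (median -0.07), with 0 passed and 1 fallen in females, where 0.546% of all genes fell. Dhcr7, which catalyses the last step of the pathway, stood at 875 in HT and 999 in WT libraries (-0.16, adjusted p = 0.2). Unfolded protein response and integrated stress genes were lower in 27 of 32 (median -0.07, and -0.04 without WT females 3 and 4), among them the chaperone gene Canx, at 8517 in HT and 9441 in WT libraries (-0.13, adjusted p = 0.125). Heat shock chaperones were lower in 17 of 22 (median -0.06), with Hspa1a at 255 in HT and 337 in WT libraries (-0.33, adjusted p = 0.214). Of 19 enzymes of phosphatidylserine and phosphatidylethanolamine metabolism 0 passed, and next to Pisd came Ptdss1, a phosphatidylserine synthase, at 1950 in HT and 2063 in WT libraries (-0.08, adjusted p = 0.317). Histone lysine methyltransferases and demethylases (24 of 42 higher), p53 and DNA damage genes (18 of 24), glucocorticoid-responsive genes (12 of 20) and genes known to differ between C57BL/6 substrains (4 of 7) had 0 passed and medians from 0.02 to 0.07. With WT females 3 and 4 left out, the medians were 0.0059, 0.04, 0.08 and 0.02 in the same order.

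Set against the other treatments, 8 genes passed between HT and WT under vehicle (0.048%), 5 higher (0.03%) and 3 lower (0.018%), and 102 under fluoxetine (0.612%), 64 higher (0.384%) and 38 lower (0.228%); Pisd-ps1 was the 1 gene that also passed under lithium in each. Of the 100 genes with the smallest p among those higher under lithium, 62 were also higher in HT under vehicle and 69 under fluoxetine, where 50.7% and 48.7% of all genes were higher; without WT females 3 and 4 the numbers were 73 and 76. Of the 100 lower ones, 47 were also lower under vehicle and 49 under fluoxetine, and without the 2 libraries 69 and 48, where 49.3% and 51.3% of all genes were lower. These counts are a description. The vehicle and fluoxetine libraries did not enter the lithium differences but shared in the spread by which the genes were ranked.

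The lithium difference minus the vehicle difference passed in 0 of 16669 genes (0%) by limma, with 2320 at an unadjusted p under 0.05 and 0 by edgeR and by DESeq2. The genotype differences in olfactory bulb markers were opposite, with a median of -0.50 under lithium and 0.99 under vehicle. Mitochondrially encoded genes had medians of 0.09 under lithium, -0.31 under vehicle and 0.10 under fluoxetine. Whether this bears on the comparisons between treatments was not tested. Hspa1a, the inducible heat shock protein, had -0.61 (SE 0.139, adjusted p = 0.168), made of -0.33 under lithium and 0.28 under vehicle, and Slc12a4, a potassium chloride cotransporter, had -0.31 (adjusted p = 0.168). The lithium minus the fluoxetine difference passed in 8 genes (0.048%), all lower. Fermt2 had -0.32 (SE 0.0559, adjusted p = 0.0101), with -0.19 under lithium and 0.13 under fluoxetine. Gramd3, a protein with a lipid-binding domain, had -0.54 (SE 0.103, adjusted p = 0.0281), with -0.26 under lithium and 0.28 under fluoxetine, and Prdx6, an antioxidant enzyme, -0.33 (SE 0.0674, adjusted p = 0.0414), with -0.15 under lithium and 0.18 under fluoxetine. With WT females 3 and 4 left out, 1 gene passed (0.006%), and it was none of these 3; with only the groups compared in the fit, 0 passed. Both of these tests hold the same lithium libraries and are not independent of each other.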

How the data were processed

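Prefrontal cortex RNA was prepared with a stranded, poly(A)-selecting kit, per the labels' protocols. The submitters' processing notes name Salmon 0.11.2, R 3.6.0, DESeq2 1.19.11 and GRCm38. The authors deposited 1 table of 18088 Ensembl genes in 58 libraries, whose values are a normalised signal per gene: in 54 libraries 100% of nonzero values were whole multiples (tolerance 0.01) of 1 step per library, so whole reads could be recovered; for 4, HT lithium male 3 among them, the step was not decided and the depth is an estimate. Symbols and positions come from GENCODE M21 (18077 IDs matched, 11 did not). The pseudogene sequences are from its transcripts.

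All 58 libraries entered 1 limma 3.58.1 fit (R 4.3.3, variance trend) of log2(value + 1) on 12 groups of genotype, treatment and sex. Genes with a mean under 10 (1419) were left out, and differences average the sexes. A fold change on this scale understates the change of low genes. Tests were also run on simulated counts drawn for each gene on its own. Differences shared by many genes within a library, as seen here, were not simulated, so that check does not cover them. edgeR 4.0.16 and DESeq2 1.42.0 on recovered reads of the 54 libraries were alternatives. Library measures were tested by exact permutation within sex. Read depth sets the counting error, and whether it bears on other differences between libraries was not tested.

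Named genes are Kmt5b, Pisd and its copies, genes that passed, the 12 higher and 12 lower genes with the smallest p and 1 sign in both sexes, 6 each way without WT female 1, 3 each way for each test of a difference, and up to 4 members a list. The samples, lists and named copies were chosen with earlier results of these data known. The alternatives without WT females 3 and 4, without the 3 HT libraries low in olfactory bulb markers, on 54 libraries, the exon length measure and the oligosaccharyltransferase list were added after seeing the data. Replicate numbers did not pair the libraries. 1 gene that the rule names is not reported here.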

Additional observations from a re-analysis of the deposited data

Results flagged for a closer look

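Of 62 groups of library values examined, 2 held a library far from the others; chance gives about 1 in 20. The mean log2 level of microglia markers was 9.45 in WT lithium female 3, with the nearest WT lithium library at 9.18. The mean log2 level of hippocampus and deep forebrain markers was 6.50 in WT lithium female 2, with the nearest at 6.80.

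The HT minus WT difference was not the same under lithium as under fluoxetine in 8 genes, by a test of the difference itself in limma. Of those named, Fermt2 had -0.32, Gramd3 -0.54 and Prdx6 -0.33, each lower in HT under lithium and higher under fluoxetine. Without WT females 3 and 4 the count was 1.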

How the results depend on the processing

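The count of genes between HT and WT under lithium, 10, was 2 with quantile normalisation, a mean of at least 100, edgeR, edgeR or limma without WT females 3 and 4, or limma on 54 libraries; 3 with no filter; 4 with a pseudocount of 10 or only the groups compared; 16 with the exon length slope and 39 with the olfactory bulb level as covariate; 22 by DESeq2 and 879 with library weights. Leaving out 1 library gave 2 to 211.

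In females (136) the count was 0 with only the groups compared or without WT females 3 and 4 (limma and edgeR), 1 with the slope, 4 on 54 libraries, 5 without the 3 HT libraries low in olfactory bulb markers, 7 with the striatal level, 8 with quantile normalisation, 13 with no filter, 21 with a pseudocount of 10, 67 with no variance trend, 220 at a mean of at least 100, 507 with the bulb level, 676 by DESeq2 and 3436 with weights. Leaving out 1 library gave 1 to 2871, the highest without WT female 1. In males (4) it was 1 with quantile normalisation, 2 with the slope, edgeR, edgeR without WT females 3 and 4, on 54 libraries or without the 3 HT libraries, and 65 with weights, and 1 to 5 with 1 library left out.

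The difference between sexes (0) was 1 without the 3 HT libraries, 2734 with weights and 0 to 1111 with 1 library left out, the highest without WT female 1. Lithium minus vehicle (0) was 1 with only the groups compared, 649 with weights and 0 to 37, the highest without WT female 2. Lithium minus fluoxetine (8) was 0 with only the groups compared, 1 with the slope, without WT females 3 and 4 or without the 3 HT libraries, 3 by edgeR without WT females 3 and 4, 4 with quantile normalisation, 5 by edgeR, 30 with the bulb level, 73 by DESeq2, 1088 with weights and 1 to 133, the highest without WT female 1. The causes were not tested.

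Library measures passed in 2 cases, in 0 without either set of libraries and in 0 to 3 with 1 left out. The Kmt5b difference was 0.0852 without WT females 3 and 4 and 0.11 to 0.17 with 1 library left out.

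The labels' replicate numbers did not pair the libraries: 1 of 8 pairs correlated over 0.1 and 1 of 8 libraries matched its own number best. With the replicate block the counts were 2 for lithium, 5 in females, 4 in males, 0 between sexes, 0 for lithium minus vehicle and 6 for lithium minus fluoxetine.

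Of 156 named gene results, 9 changed sign. Without WT females 3 and 4, Klf2 was 0.0174, Gabrd 0.0063, Adcy5 0.0024, mt-Atp8 -0.0776 (edgeR -0.0788) and mt-Nd5 -0.0244 (edgeR -0.0121). Without the 3 HT libraries, Ms4a15 was 0.42, Th 0.35, Nmb 0.39 and Doc2g 0.51. Over all named results and alternatives, 211 lost and 217 gained a call and 5316 did neither. Low counts, as for Stil (3.50 to 23.7) and Neurog2 (12.6 to 38.3), limit precision most.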
